A study of Arabidopsis thaliana with 12 samples.

Results

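The genes described here are the 4 DNA demethylases of Arabidopsis thaliana, ROS1 (AT2G36490), DME (AT5G04560), DML2 (AT3G10010) and DML3 (AT4G34060), together with the histone acetyltransferase gene IDM1 (AT3G14980). These 5 genes were chosen by identifier, from 69056 features listed in the deposited tables, and all 5 were among the 23614 features expressed highly enough to be tested. The encoded demethylases belong to the DEMETER family of DNA glycosylases, which cut 5-methylcytosine out of DNA so that base excision repair can put an unmethylated cytosine in its place. ROS1 does this in vegetative tissue, where it keeps methylation from spreading from transposable elements (TEs) into genes. Its own transcription is known to be promoted by methylation of its promoter and to drop in mutants that lose that methylation, which is why ROS1 is used as a sensor of the methylation level. IDM1 binds methylated DNA and acetylates histone H3, which helps ROS1 reach part of its targets.

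RNA was sequenced from whole seedlings of 10 days grown on ½ MS medium with 1% sucrose at 22 °C, under 16 h of light and 8 h of dark. There were 6 groups of 2 libraries. V1200R/cc lines 9 and 15 carry a FLAG-tagged genomic CMT2 fragment with the V1200R substitution, and CMT2/cc lines 1 and 19 carry the same fragment without it, all 4 in the cc background. The cc group carries T-DNA insertions in 2 chromomethylase genes, cmt2-7 and cmt3-11, and the wild type is Col-0. CMT2 and CMT3 are the DNA methyltransferases that maintain non-CG methylation at TEs. The transgenes are driven by the native CMT2 promoter, and the lines are independent transformants, so a construct is represented by 2 lines. No label says that the replicates came from separate cultures, so the p-values measure the spread between these libraries, which may be technical.

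The libraries hold between 929.5 and 1453.0 megabases of aligned sequence, and ROS1 was covered on average by 7.08 to 20.12 reads per base. The genes disrupted by the T-DNA were checked first. In V1200R/cc, CMT2 was at 112 and 127 TPM (transcripts per 1000000) for line 9 and at 146 and 159 for line 15. CMT2/cc gave 114 and 123 for line 1 and 79.6 and 80.8 for line 19. The libraries labelled cc had 1.70 and 1.99 TPM of CMT2, and Col-0 had 15 and 13.3. CMT2 was thus lowest in cc, and above Col-0 in all 8 transgenic libraries. In V1200R/cc, CMT3 was at 6.24 and 6.29 TPM for line 9 and at 5.93 and 6.15 for line 15. CMT2/cc gave 5.30 and 4.72 for line 1 and 7.02 and 5.69 for line 19. The libraries labelled cc had 16.4 and 14.02 TPM of CMT3, against 12.9 and 11.5 in Col-0. The CMT3 transcript was thus not lower in the libraries labelled cc, whereas it fell against them in all 4 transgenic lines, with log2 fold changes from -1.51 to -1.20. Whether the libraries labelled cc and the lines are alike at CMT3 was not tested, so they may differ in more than the transgene. Photosynthetic leaf markers (3 genes) summed to between 26045 and 33336 TPM and root hair and root wall markers (3 genes) to between 39.8 and 63.2, whereas 3 floral identity genes summed to at most 0.889 TPM. In bulk tissue, fewer cells that express a gene and less RNA per cell cannot be told apart.

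ROS1 lies on chromosome 2 from 15307907 to 15314807 on the minus strand, with 21 exon blocks in the RefSeq annotation of TAIR10.1. DME is on chromosome 5 from 1309099 to 1318520 (plus strand, 18 blocks), DML2 on chromosome 3 from 3081735 to 3088550 (minus strand, 21 blocks), DML3 on chromosome 4 from 16313366 to 16319426 (plus strand, 20 blocks), and IDM1 on chromosome 3 from 5039812 to 5045525 (minus strand, 8 blocks). Of these genes, ROS1, DML2 and DML3 have an annotated TE within the 300 bases before their start, as do 15.8% of 27443 protein-coding genes, whereas DME and IDM1 have none there. The 300 bases upstream of these 3 genes are shown because the demethylases are known to guard the boundary between TE and gene. That boundary lies inside the ROS1 and DML2 windows, whereas for DML3 it lies past the start of the gene. They are written 5′ to 3′ on the strand of the gene and end at the base before its start, with bases inside an annotated TE in capitals.
ROS1, chr2:15314808-15315107, minus strand: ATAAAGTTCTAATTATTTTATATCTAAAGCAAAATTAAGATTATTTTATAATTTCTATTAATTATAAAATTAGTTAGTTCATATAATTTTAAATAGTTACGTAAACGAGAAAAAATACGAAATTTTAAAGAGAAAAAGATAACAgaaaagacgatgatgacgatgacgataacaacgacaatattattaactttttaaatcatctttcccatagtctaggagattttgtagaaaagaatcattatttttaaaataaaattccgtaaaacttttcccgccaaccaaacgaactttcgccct
DML2, chr3:3088551-3088850, minus strand: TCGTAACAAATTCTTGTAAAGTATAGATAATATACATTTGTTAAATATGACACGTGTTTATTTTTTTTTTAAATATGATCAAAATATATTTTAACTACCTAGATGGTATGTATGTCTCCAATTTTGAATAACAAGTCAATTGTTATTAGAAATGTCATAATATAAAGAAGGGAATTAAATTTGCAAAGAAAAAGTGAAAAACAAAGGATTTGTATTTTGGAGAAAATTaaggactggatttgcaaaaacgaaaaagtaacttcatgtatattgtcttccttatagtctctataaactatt
DML3, chr4:16313066-16313365, plus strand: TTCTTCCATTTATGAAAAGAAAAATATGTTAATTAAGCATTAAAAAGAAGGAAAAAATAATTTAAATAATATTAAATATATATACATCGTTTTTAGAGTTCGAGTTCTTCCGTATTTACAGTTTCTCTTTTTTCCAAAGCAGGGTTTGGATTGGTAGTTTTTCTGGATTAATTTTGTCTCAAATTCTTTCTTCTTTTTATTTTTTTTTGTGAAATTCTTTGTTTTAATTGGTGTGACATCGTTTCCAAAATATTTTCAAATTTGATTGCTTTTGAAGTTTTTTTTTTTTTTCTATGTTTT

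In the ROS1 window, 144 bases belong to the TE AT2TE68230 (chromosome 2, 15314964 to 15315279), whose near end is 157 bases from the start of the gene. In the DML2 window, 228 bases belong to AT3TE12970 (chromosome 3, 3088623 to 3089287), 73 bases from the start. The DML3 window lies wholly within TEs, since AT4TE78255 (chromosome 4, 16313282 to 16313389) runs 23 bases past the start into the first exon and AT4TE78250 adjoins it. Counted on both strands, the ROS1 window holds 22 cytosines in CG, 4 in CHG (CAG, CTG or CCG) and 46 in the remaining context, CHH. The DML2 window holds 6, 2 and 64 cytosines in CG, CHG and CHH, and the DML3 window 8, 7 and 54, against medians of 12, 10 and 71 over the same window of all 27443 protein-coding genes. The ROS1 window is therefore richer in CG and poorer in both CHG and CHH than the median. The DML2 and DML3 windows are also poorer in CHG and CHH, but they are poorer in CG as well. These counts describe the sequence only, and methylation was not analysed here.

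**Figure D1:**
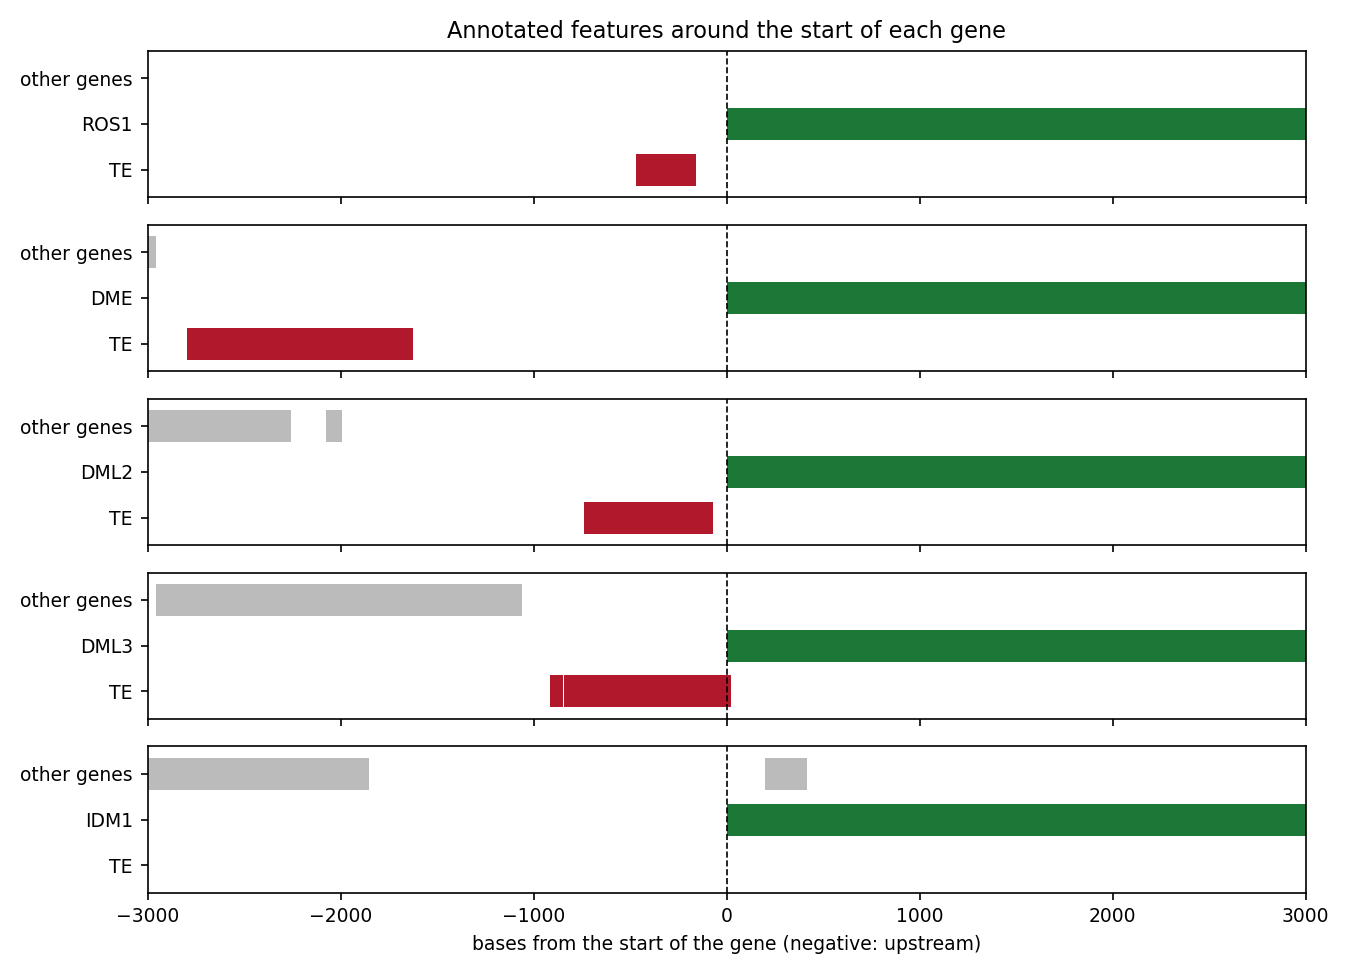
Annotated features around the start of ROS1, DME, DML2, DML3 and IDM1, with the distance from the start in bases on the x axis (negative values are upstream), the gene in green, TEs in red and other genes in grey. TEs end 157 bases before ROS1 and 73 bases before DML2 and overlap the start of DML3, whereas the nearest one upstream of DME is 1626 bases away and none is drawn near IDM1.

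Transcripts of the TEs themselves were hardly found. AT2TE68230 next to ROS1 was listed at 0 TPM in all 12 libraries, and the 4 TEs at and upstream of the DML3 start and AT5TE04750, 1626 bases upstream of DME, were listed at 0 throughout as well. AT3TE12970 next to DML2 reached at most 0.0582 TPM, and AT4TE78270, which overlaps coding exons of DML3, at most 0.0372 TPM. The antisense gene AT3G14981, which overlaps the first part of IDM1, reached at most 0.106 TPM, and since the strand setting of the counting is not given in the sources used here, its reads and those of IDM1 cannot be told apart there. A further pair of genes lies within 2000 bases of a member's start. CCoAOMT1, a lignin methyltransferase gene that ends 1058 bases before DML3, had 468 to 601 TPM, and DJ1A, 1851 bases upstream of IDM1, had 170 to 232 TPM. The pre-tRNA gene AT3G10015 near DML2 was listed at 0 in every library.

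ROS1 was the only one of the 5 genes called in any of the 10 comparisons of the groups. In V1200R/cc, it was at 13.4 and 13.7 TPM for line 9 and at 12.1 and 14.5 for line 15. CMT2/cc gave 9.78 and 12.5 for line 1 and 14.2 and 14.5 for line 19. The libraries labelled cc had 21.4 and 25.7 TPM, against 16.5 and 15.3 in Col-0. Both cc libraries were above the other 10, and all 8 transgenic libraries were below both Col-0 libraries. The means were 13.5 ± 0.229 and 13.3 ± 1.73 TPM for V1200R/cc lines 9 and 15, 11.1 ± 1.91 and 14.4 ± 0.174 for CMT2/cc lines 1 and 19, 23.6 ± 3.07 for cc and 15.9 ± 0.866 for Col-0 (SD, n = 2 each).

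**Figure D2:**
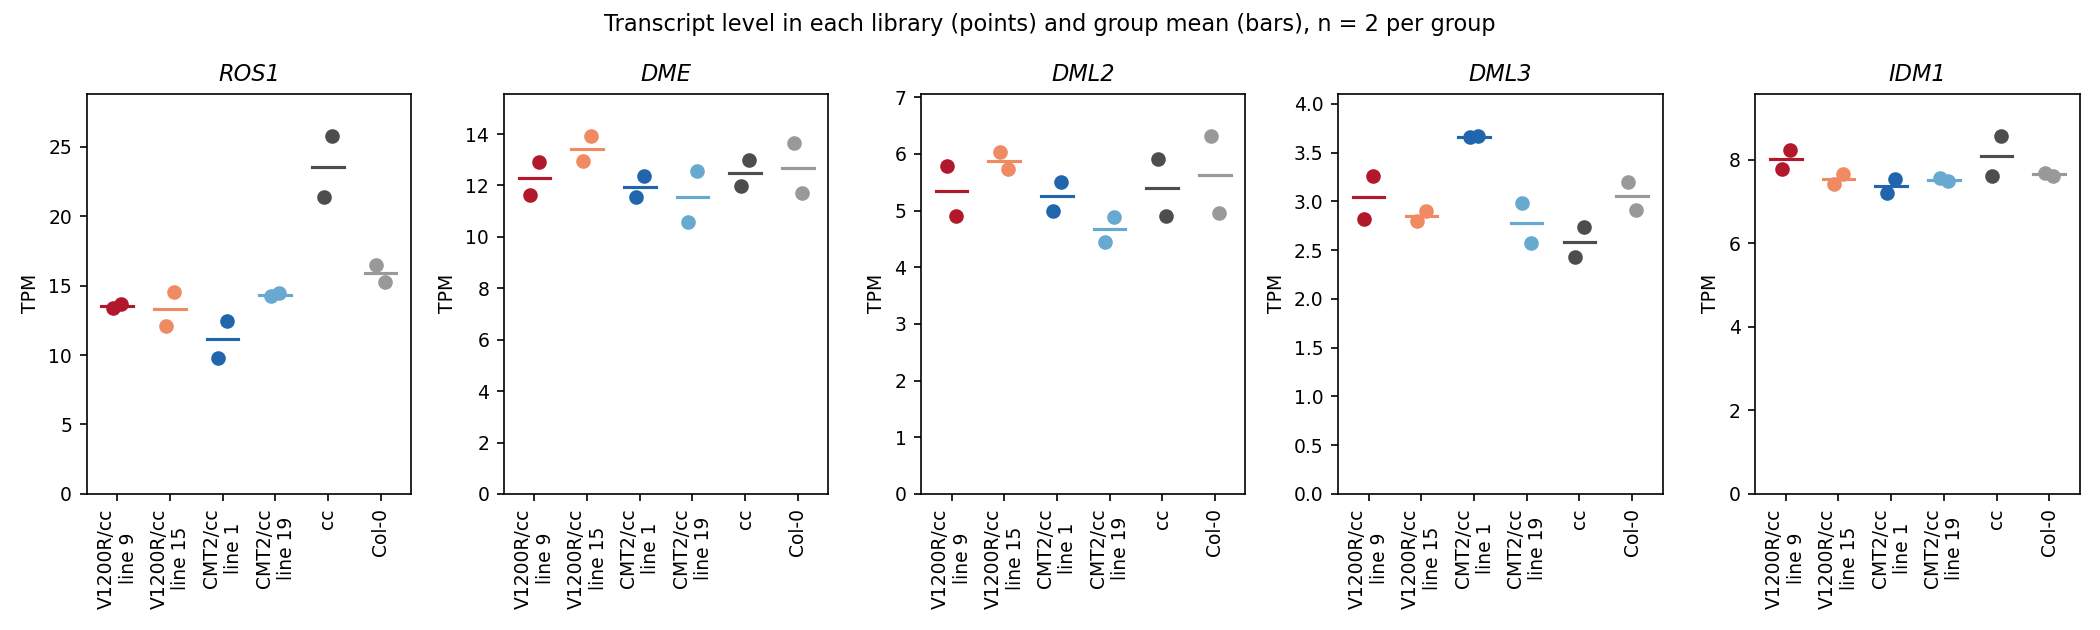
Transcript level (TPM, y axis from 0) of each gene in the 6 groups on the x axis, with 1 point per library and a bar at the group mean (n = 2). The 2 cc points of ROS1, at 21.4 and 25.7 TPM, lie above all others, which lie between 9.78 and 16.5, while the groups of DME, DML2 and IDM1 lie close together and DML3 is highest in CMT2/cc line 1.

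The first question was whether ROS1 changed when CMT2, with or without the substitution, was put back into cc. ROS1 fell in all 4 lines against the libraries labelled cc, which also had more CMT3 transcript than the lines. In V1200R/cc, the log2 fold change was -0.77 for line 9 (adjusted p = 0.00703) and -0.80 for line 15 (adjusted p = 0.00431). In CMT2/cc it was -1.05 for line 1 (adjusted p = 0.00236) and -0.69 for line 19 (adjusted p = 0.0261). All 4 come from 1 limma fit of the 12 libraries and have an SE of 0.13. In mean TPM, V1200R/cc lines 9 and 15 had 0.575 and 0.564 times the cc level, and CMT2/cc lines 1 and 19 had 0.472 and 0.609 times. An adjusted p below 0.05 was the rule for a call. ROS1 was the only one of the 5 genes called in each of these comparisons. Of all tested features, 8.83% were called for V1200R/cc line 9, 13.7% for line 15, 4.02% for CMT2/cc line 1 and 3.04% for line 19. The 4 comparisons share the same 2 cc libraries, so they are not independent of each other. Each also sets transgenic libraries against cc, and a difference in processing between them cannot be told apart, as given below. The same holds for the lines against Col-0. Without cc replicate 2, the higher of the 2, the calls were lost for V1200R/cc line 9 (-0.64, adjusted p = 0.0681) and CMT2/cc line 19 (-0.56, adjusted p = 0.212) and stood for V1200R/cc line 15 (-0.67, adjusted p = 0.0431) and CMT2/cc line 1 (-0.92, adjusted p = 0.0313). When each pair of groups was fitted alone, none of the 4 was called (adjusted p between 0.0501 and 0.138).

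The second question was whether the libraries labelled cc, in which CMT2 but not CMT3 transcript was below the wild type, differed from Col-0 in ROS1. ROS1 was 1.48 times as high in them as in Col-0, at 23.6 against 15.9 TPM, and the 2 groups did not overlap. ROS1 was thus not lower in cc, unlike in mutants known to lose the methylation of its promoter. Methylation of that promoter was not analysed here. The log2 fold change of 0.55 (SE 0.13, 95% confidence interval 0.25 to 0.85) had an adjusted p of 0.0525 and was not called, whereas 4.44% of all tested features were. None of the other 4 genes was called in this comparison either. For ROS1, 5 of 11 other settings and 3 of 12 fits without 1 library gave an adjusted p below 0.05, the lowest being 0.0387.

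Against Col-0, ROS1 was lower in every line, but in none was the difference called in the fit of 6 group means. With the replicate number added as a block, it was called for CMT2/cc line 1 (-0.50, adjusted p = 0.0486). In V1200R/cc, the log2 fold change was -0.22 for line 9 (95% confidence interval -0.52 to 0.08, adjusted p = 0.437) and -0.25 for line 15 (-0.55 to 0.05, adjusted p = 0.348). In CMT2/cc it was -0.50 for line 1 (-0.80 to -0.20, adjusted p = 0.0653) and -0.14 for line 19 (-0.44 to 0.16, adjusted p = 0.571). Only the interval of CMT2/cc line 1, which is not adjusted for the number of features, leaves out 0. Of all tested features, 4.48% were called against Col-0 for V1200R/cc line 9, 6.30% for line 15, 5.18% for CMT2/cc line 1 and 9.55% for line 19, and none of the 5 genes was among them.

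The third question was whether the V1200R substitution changed ROS1. The 4 V1200R/cc libraries had 12.1 to 14.5 TPM and the 4 CMT2/cc libraries 9.78 to 14.5, with means of 13.4 ± 1.02 and 12.7 ± 2.17 TPM (SD, n = 4 each, of 2 lines). The log2 fold change of 0.08 (SE 0.09, adjusted p = 0.555) has a 95% confidence interval of -0.13 to 0.30. The spread used for every p-value and interval of this construct comparison is that between libraries of the same group. It leaves out variation between lines of a construct. Between the 2 CMT2/cc lines, ROS1 was 0.36 higher in line 19 than in line 1 (95% confidence interval 0.06 to 0.66, limma adjusted p = 0.653). In this comparison 27.5% of all tested features were called, 13.6% higher and 13.9% lower, and none of the 5 genes was. The CMT2 transcript itself differed between the constructs, being higher in V1200R/cc (log2 difference 0.47, adjusted p = 0.000927). At a like CMT2 level, V1200R/cc line 9 (119 TPM of CMT2) and CMT2/cc line 1 (118 TPM) had a ROS1 difference of 0.28 on the log2 scale (adjusted p = 0.247), which was not called.

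**Figure D3:**
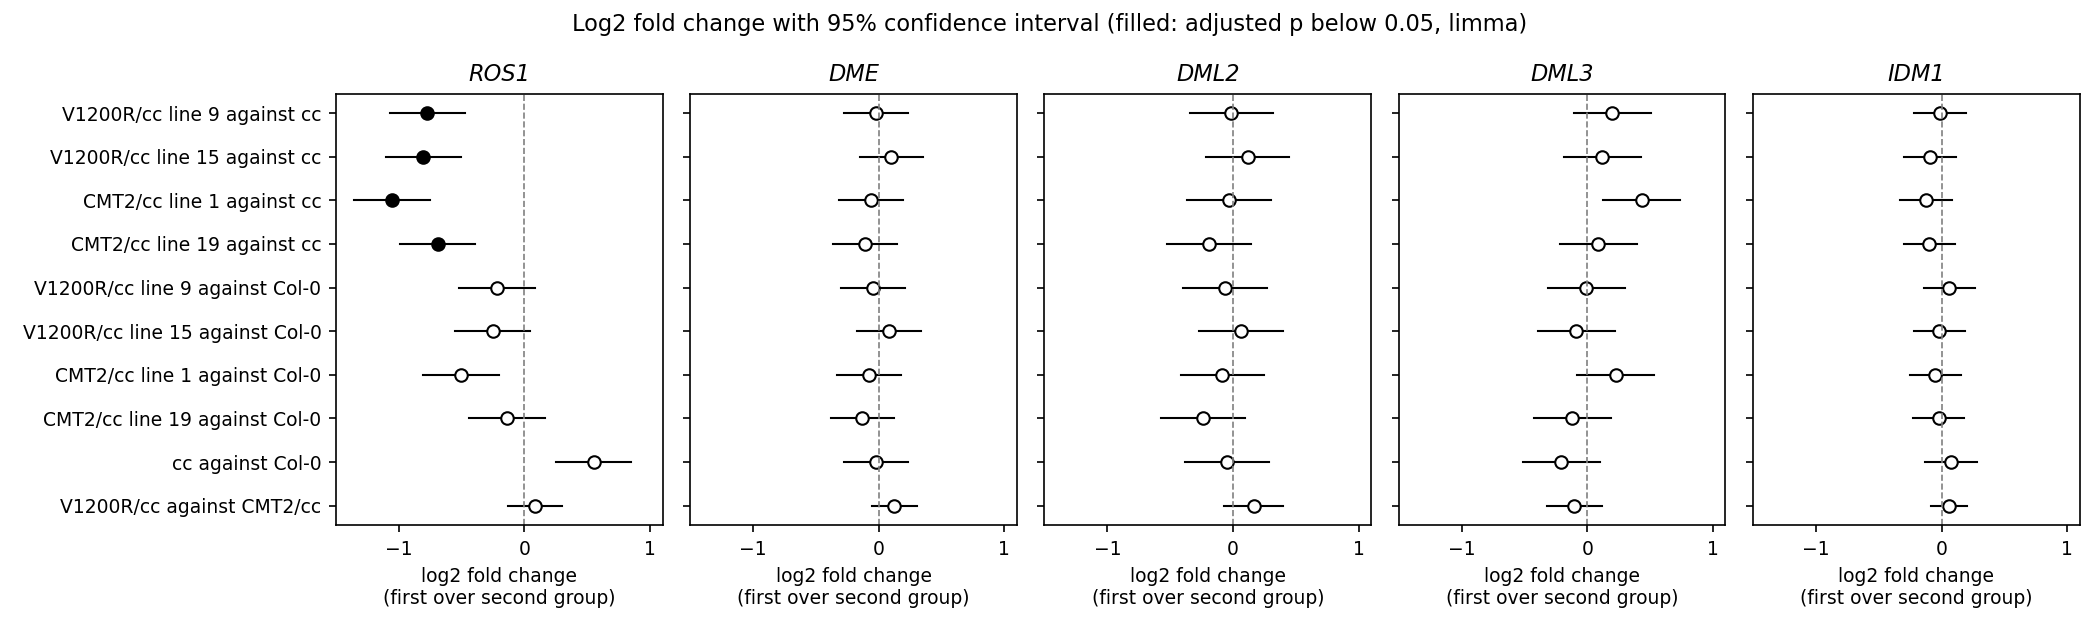
Log2 fold change (x axis, first over second group) of each gene in 10 comparisons (y axis), with the 95% confidence interval as a line and a filled point where the adjusted p from limma was below 0.05. The filled points are the 4 values of ROS1 in the lines against cc, from -1.05 to -0.69.

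Ordered by mean level, ROS1 was highest in cc, then Col-0, CMT2/cc line 19, V1200R/cc line 9, V1200R/cc line 15 and CMT2/cc line 1. No group differed from its neighbour in that order by the test. The adjusted p was 0.0525 for cc against Col-0, 0.571 for CMT2/cc line 19 against Col-0, 0.76 for V1200R/cc line 9 against CMT2/cc line 19 (11.9% of features called), 0.997 for V1200R/cc line 15 against line 9 (0.0212%), and 0.25 for V1200R/cc line 15 against CMT2/cc line 1 (16.6%).

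DME, which demethylates the central cell genome before fertilisation and is also transcribed in seedlings, was called in none of the 10 comparisons. In V1200R/cc, it was at 11.6 and 12.9 TPM for line 9 and at 12.9 and 13.9 for line 15. CMT2/cc gave 11.5 and 12.4 for line 1 and 10.6 and 12.6 for line 19. DME was at 11.98 and 12.99 TPM in cc, against 13.6 and 11.7 in Col-0. Every line overlapped with cc and with Col-0, while both V1200R/cc line 15 libraries were above the 4 of CMT2/cc. The log2 fold changes of DME over the 10 comparisons lay between -0.13 and 0.12 (SE 0.08 to 0.11, smallest adjusted p 0.291). In V1200R/cc against CMT2/cc it differed by 0.12, with a 95% confidence interval of -0.06 to 0.30.

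DML2 and DML3, the DEMETER-like glycosylases that trim methylation at gene ends, had lower TPM than ROS1 and DME in every library. In V1200R/cc, DML2 was at 5.80 and 4.91 TPM for line 9 and at 6.03 and 5.73 for line 15. CMT2/cc gave 4.998 and 5.51 for line 1 and 4.45 and 4.89 for line 19. The cc libraries had 5.91 and 4.90 TPM, against 6.31 and 4.95 in Col-0. Both CMT2/cc line 19 libraries were below all cc and Col-0 libraries, if by little, whereas V1200R/cc line 15, with the highest mean, lay within the Col-0 values. Its log2 fold changes lay between -0.24 and 0.16 (smallest adjusted p 0.288), and V1200R/cc against CMT2/cc gave 0.16 (95% confidence interval -0.07 to 0.40). In V1200R/cc, DML3 was at 2.82 and 3.26 TPM for line 9 and at 2.80 and 2.90 for line 15. CMT2/cc gave 3.65 and 3.67 for line 1 and 2.98 and 2.57 for line 19. DML3 was at 2.43 and 2.74 TPM in cc, against 3.20 and 2.91 in Col-0. Both CMT2/cc line 1 libraries were above the other 10, and the cc mean was the lowest of the 6. The comparison of CMT2/cc line 1 with cc gave the largest difference of the 10 for any member other than ROS1, a log2 value of 0.43 with an SE of 0.14. It was in the direction opposite to ROS1 and was not called (adjusted p = 0.129). Over the 12 libraries the Pearson r of DML3 with ROS1 was -0.62, a description of 12 points in 6 groups.

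IDM1, which marks chromatin for ROS1, was called in none of the 10 comparisons. In V1200R/cc, IDM1 was at 7.79 and 8.24 TPM for line 9 and at 7.43 and 7.67 for line 15. CMT2/cc gave 7.22 and 7.55 for line 1 and 7.57 and 7.48 for line 19. IDM1 was at 7.62 and 8.56 TPM in cc, against 7.68 and 7.62 in Col-0. All 4 CMT2/cc libraries were below those of cc and Col-0, by little. The log2 fold changes of IDM1 had the narrowest range of the 5 genes and lay between -0.12 and 0.07 (SE 0.06 to 0.09, smallest adjusted p 0.552). In V1200R/cc against CMT2/cc it differed by 0.06, with a 95% confidence interval of -0.09 to 0.20. Its r with ROS1 over the 12 libraries was 0.67.

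Because TPM is scaled by transcript length, the 4 glycosylase genes can be set beside each other within a library. ROS1 had the highest TPM of the 4 in 10 of 12 libraries, and DME in V1200R/cc line 15 replicate 1 and CMT2/cc line 1 replicate 1, while DML2 was below both and DML3 lowest in all 12. ROS1 made up 32.6% to 44.2% of their summed TPM in the 8 transgenic libraries, 51.3% and 55.5% in cc, and 41.6% and 43.8% in Col-0. The ratio of ROS1 to DME, which no scaling between libraries can move, was 0.847 to 1.35 in the transgenic libraries, 1.79 and 1.98 in cc, and 1.21 and 1.30 in Col-0. The summed TPM was 30.0 to 37.1 in the transgenic libraries, 41.7 and 46.4 in cc, and 39.6 and 34.9 in Col-0.

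**Figure D4:**
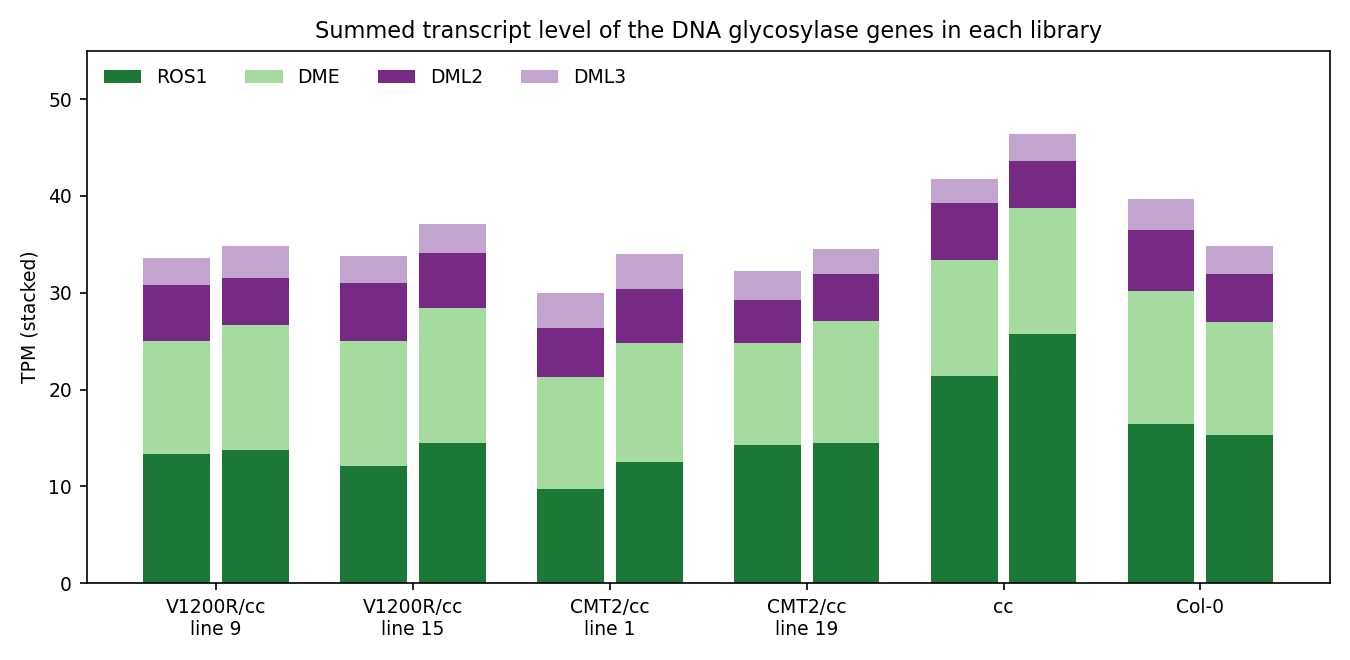
Stacked TPM of ROS1, DME, DML2 and DML3 (y axis from 0) in each of the 12 libraries, grouped on the x axis with 2 bars per group. The cc bars are the tallest, at 41.7 and 46.4 TPM, and the ROS1 part is the one that differs most in height.

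Genes that act with the demethylases were read from a list written from general knowledge. Of its 15 genes, all tested, none was called in cc against Col-0 or in any line against cc. Of all features, 4.44% were called in cc against Col-0 and 3.04% to 13.7% in the lines against cc. At such shares few calls among 15 genes would be found in any case. The median log2 fold change in cc against Col-0 was 0.06, beside 0.02 over all features. In V1200R/cc against CMT2/cc, 2 were called higher and 3 lower, beside 13.6% and 13.9% of all features, and the median was -0.11 beside -0.02. AT4G36050, which RefSeq names as an endonuclease/exonuclease/phosphatase family protein, rose by 0.47 (log2 scale, SE 0.08, adjusted p = 0.00343), with 9.89, 10.9, 10.5 and 10.04 TPM in V1200R/cc and 7.36, 7.57, 6.61 and 7.73 in CMT2/cc. XRCC1, a scaffold of single-strand break repair, rose by 0.26 (adjusted p = 0.0233). ARP, an apurinic endonuclease, fell by 0.32 (SE 0.09, adjusted p = 0.0291), LIG1, the DNA ligase that seals the repaired strand, fell by 0.31 (SE 0.07, adjusted p = 0.0112), and PIE1, the ATPase of the SWR1 complex that exchanges histone H2A.Z, fell by 0.22 (adjusted p = 0.0463). Of 12 fits that each left out 1 library, the XRCC1 call was lost in 5, the ARP call in 6 and the PIE1 call in 10, with adjusted p up to 0.0837, 0.0954 and 0.145. PIE1 was lost even without either Col-0 library, which is in neither construct.

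**Figure D5:**
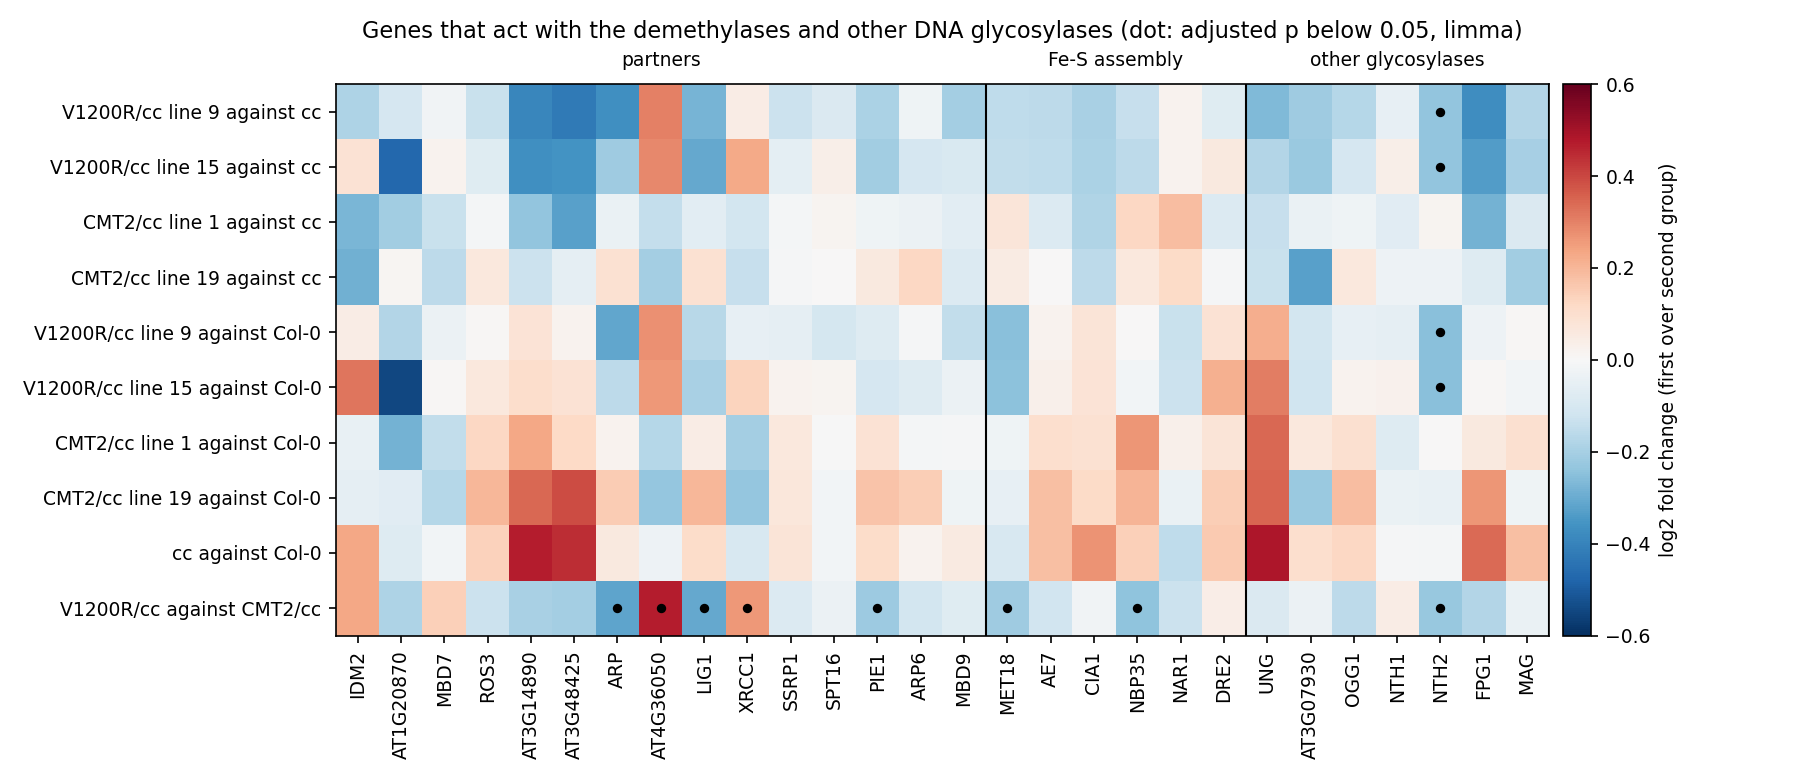
Log2 fold change (colour, first over second group) of 15 genes listed as acting with the demethylases, 6 genes of iron-sulfur cluster assembly and 7 other DNA glycosylase genes (x axis) in 10 comparisons (y axis), with a dot where the adjusted p from limma was below 0.05. The dots stand mainly in the bottom row, V1200R/cc against CMT2/cc, where AT4G36050 is highest at 0.47.

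IDM2 and MBD7, which work with IDM1 in bringing ROS1 to its targets, were called in none of the 10 comparisons. IDM2, a small heat shock-like protein, had between 0.884 and 1.54 TPM, and MBD7, a protein that binds methylated CG sites, between 8.68 and 11.6. AT1G20870, an HSP20-like chaperone in RefSeq, had between 1.70 and 3.31 TPM and was not called. In V1200R/cc, AT3G14890, a phosphoesterase in RefSeq, was at 8.27 and 8.73 TPM for line 9 and at 7.67 and 9.72 for line 15. CMT2/cc gave 8.52 and 10.6 for line 1 and 10.5 and 10.1 for line 19. This gene was at 11.6 and 10.9 TPM in cc, against 8.16 and 7.85 in Col-0. Both cc libraries were the highest of the 12, as for ROS1, CMT3 and further genes named below. The log2 fold change of 0.47 against Col-0 (SE 0.13, adjusted p = 0.0836) was not called.

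The glycosylases hold an iron-sulfur cluster, which the cytosolic assembly pathway provides. Of 6 genes of that pathway, none was called in cc against Col-0 or in a line against cc, where 3.04% to 13.7% of all features were, so a count of 0 among 6 is near the background. In V1200R/cc against CMT2/cc, 2 of the 6 were called lower, beside 13.9% of all features. NBP35, a scaffold for the cluster, fell by 0.24 (SE 0.05, adjusted p = 0.00755) and MET18, which hands clusters to DNA enzymes and is needed for ROS1 function, fell by 0.21 (SE 0.07, adjusted p = 0.0424). The MET18 call was lost in 10 of the 12 fits without 1 library, with adjusted p up to 0.132, and with the replicate block (adjusted p = 0.0564). Of 7 other DNA glycosylase genes, NTH2, an endonuclease III that removes oxidised pyrimidines, was the only one called. Against cc it fell by 0.24 in both V1200R/cc lines (adjusted p = 0.0377 for line 9 and 0.0284 for line 15), where 5.17% and 7.33% of all features were called lower. In V1200R/cc against CMT2/cc it fell by 0.23 (SE 0.04, adjusted p = 0.00352), and this 1 of 7 stands beside 13.9% of all features called lower, a like share. NTH2 was also called lower in both V1200R/cc lines against Col-0.

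Of 17 genes of the DNA methylation machinery, CMT2 was the only one called in cc against Col-0 (-2.64 on the log2 scale, adjusted p = 3.49e-07) and in V1200R/cc against CMT2/cc. Of all features, 4.44% were called in the first of these and 27.5% in the second. CMT2 is itself the gene that is disrupted in cc and carried by the transgenes. In each line against cc, CMT2 was called higher and CMT3 lower, and AGO4, the Argonaute of RNA-directed methylation, was also called lower in V1200R/cc line 15, where it fell by 0.29 (adjusted p = 0.0464). CMT3 was called lower than in Col-0 as well in all 4 lines, with log2 fold changes from -1.20 to -0.89. In cc against Col-0 it was not called (0.31, adjusted p = 0.238). Of all features, 3.65% and 6.32% were called higher than in cc in V1200R/cc lines 9 and 15, and 1.30% and 0.766% in CMT2/cc lines 1 and 19. The shares called lower than in cc were 5.17% and 7.33% for V1200R/cc lines 9 and 15, and 2.72% and 2.27% for CMT2/cc lines 1 and 19. MET1, which maintains CG methylation, was called in none of the 10. Both cc libraries were the highest of all for MET1, AGO4 and CMT3, as for ROS1. CMT3 and ROS1 moved in the same direction in every line against cc, and their part in each other's values was not tested.

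Loci at which the demethylases are known to act were mostly silent in these seedlings. Of 6 on the list, EPF2, a stomatal patterning peptide gene whose promoter ROS1 protects, was the one expressed highly enough to be tested. EPF2 had 5.78, 5.45, 3.99 and 5.36 TPM in V1200R/cc, 3.67, 4.31, 4.26 and 3.50 in CMT2/cc, 5.61 and 5.10 in cc, and 5.16 and 5.78 in Col-0. The values of the constructs overlapped, and the log2 difference of 0.34 (SE 0.11, adjusted p = 0.0507) was not called. The imprinted targets of DME, FWA and FIS2, were listed at 0 in all 12 libraries, and MEA in 11. RMG1, a resistance gene regulated by ROS1, reached at most 0.527 TPM and AT4G18650 at most 0.40.

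The genes with a pattern most like that of ROS1 over the 12 libraries were sought among 14859 protein-coding genes with a mean of at least 5 TPM. CDEF1, a cutinase, had a Pearson r of 0.93, followed by AT5G25560, a RING-type zinc finger gene (0.92), SIP1, annotated as raffinose synthase 1 (0.91), TUA2, an alpha-tubulin (0.91), and AT3G53100, a GDSL-type lipase gene (0.91). All 5 had their highest mean in cc, which follows from choosing them for likeness to ROS1. Their largest fall in any line against cc was smaller than that of ROS1, between -0.68 for CDEF1 and -0.41 for TUA2. The closest gene to DME was ECA1, a calcium pump of the endoplasmic reticulum (r = 0.97), to DML2 AT3G45620, a WD40 repeat gene (0.91), to DML3 AT1G62730, a terpenoid synthase-like gene (0.84), and to IDM1 EML2, an EMSY-like gene (0.86). These r values are descriptions over 12 libraries that fall into 6 groups.

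Rapid stress genes moved with the constructs. All 9 on the list were called higher in V1200R/cc against CMT2/cc, where 13.6% of all features were. The median log2 fold change was 1.74 beside -0.02 over all features. The list was chosen with earlier results of these data known, so its count is not independent support. The largest rises were those of the transcription factors WRKY40 (2.17, adjusted p = 4.8e-05), CBF2 (2.15, adjusted p = 0.000301) and ERF5 (1.86, adjusted p = 4.05e-05). Against cc, 6 of the 9 were called higher in V1200R/cc line 9 and 7 in line 15, and 1 was called lower in each CMT2/cc line. The shares over all features were 3.65% and 6.32% higher for V1200R/cc lines 9 and 15, and 2.72% and 2.27% lower for CMT2/cc lines 1 and 19. ROS1 was lower than cc in the lines of both constructs, and the part of the stress genes in its values was not tested. The tables of the 8 transgenic libraries also spell their column headers differently from those of cc and Col-0, so a difference in processing cannot be told apart from a difference between the lines and these 2 groups.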

How the data were processed

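RNA-seq of whole seedlings was analysed in 12 libraries, grouped by their titles. Per the submitters' processing notes and the paper's methods, the authors used fastp to filter reads, HISAT2 2.0.0 for alignment to TAIR10 and StringTie for abundance. The deposited tables give TPM, FPKM and read coverage per feature. TPM as deposited by the authors were analysed, FPKM as deposited served as an alternative, and coverage as deposited described depth only. The TPM of 4 identifiers listed more than once were added.

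Since TPM are not counts, limma 3.58.1 (lmFit, eBayes with a trend) in R 4.3.3 was run on log2(TPM + 0.5), with 1 mean per group. A feature was tested (23614 were) when 2 or more libraries had 0.5 TPM or more, and p-values were adjusted by Benjamini-Hochberg over all of them within a comparison. Fold changes on this scale understate those of low genes. The method was also run on simulated data. These had no differences between lines of a construct or in processing, so that run says nothing about either. Figures used Python 3.11.15 and matplotlib 3.10.9. Coordinates matched RefSeq TAIR10.1 for 27431 of 27432 protein-coding genes, and sequences are from that assembly.

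Named genes are the 5 members, features within 2000 bases of their starts or overlapping them, up to 3 called genes with the largest change per list, 6 further genes fixed by name, and the genes of highest r. XRCC1, PIE1, AGO4, MET1, the target loci and CRA1 were named after their values were seen. The members and lists were chosen with earlier results of these data known. The alternatives were pseudocounts of 0.1 and 1 TPM, other filters, FPKM, other scalings, a separate fit, the replicate number as a block, a minimum fold and each library left out.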

Additional observations from a re-analysis of the deposited data

How the results depend on the processing

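All 10 ROS1 differences kept their sign under every alternative run. For V1200R/cc against CMT2/cc the sign says little, since the value went down to 0.00059 with 1 library left out. The call for the fall in CMT2/cc line 1 against cc was lost only when its 2 groups were fitted alone. That separate fit gave -0.77, -0.80, -1.05 and -0.69 for V1200R/cc lines 9 and 15 and CMT2/cc lines 1 and 19 against cc, with adjusted p of 0.0501, 0.0665, 0.108 and 0.138. It has fewer libraries to estimate the spread. A minimum log2 fold change of 1 removed the calls at -0.77, -0.80 and -0.69. For cc against Col-0 a call was gained with a pseudocount of 1 TPM (0.54), FPKM (0.55), quantile normalization (0.53) and median-ratio scaling (0.52).

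Replicate numbers did not pair the libraries, because the 15 correlations of replicate differences between groups lay between -0.07 and 0.11. With the replicate block, ROS1 was called in cc against Col-0 (0.55, adjusted p = 0.0387) and in CMT2/cc line 1 against Col-0 (-0.50, adjusted p = 0.0486), and no other ROS1 call changed.

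With each library left out in turn, ROS1 in cc against Col-0 ranged from 0.42 to 0.68 (adjusted p 0.0388 to 0.253). It ranged from -0.90 to -0.64 in V1200R/cc line 9 against cc and from -0.82 to -0.56 in CMT2/cc line 19 against cc. The call in V1200R/cc line 9 was lost without cc replicate 2 or V1200R/cc line 9 replicate 1, and that in CMT2/cc line 19 without cc replicate 2 or either of its own libraries. Against Col-0 the uncalled differences of DME in cc (-0.12 to 0.086), DML2 in cc (-0.21 to 0.11) and IDM1 in cc (-0.0057 to 0.15) changed sign. DML3 in CMT2/cc line 1 against cc was called under quantile normalization (0.56, adjusted p = 0.0497). With 2 libraries per group, the SE of a single comparison was 0.09 for IDM1 and 0.15 for DML2, so small differences of these genes may go uncalled.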

Other observations

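Seed storage transcripts were at or near 0 in most of these seedlings, but CRA1, a cruciferin gene, had 11.8 and 13.6 TPM in V1200R/cc line 15, against 0.12 and 1.68 TPM in line 9. It had at most 1.59 TPM in the CMT2/cc libraries, 0.227 in cc and 0.38 in Col-0. ROS1 did not set line 15 apart, since its 12.1 and 14.5 TPM there lay on both sides of the 13.4 and 13.7 TPM of V1200R/cc line 9. The CRA1 values were singled out after they were seen, and their part in the levels of the demethylase genes was not tested.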
